A study of Mus musculus with 8 samples.

Results

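The Z-disc is the protein lattice at each end of the muscle sarcomere, where actin filaments of neighbouring sarcomeres are anchored and cross-linked. Alpha-actinins form the cross-links, the calsarcins (also called myozenins) bind alpha-actinin, filamin C, telethonin and the phosphatase calcineurin, and further proteins such as ZASP, myotilin and telethonin hold the lattice and the end of titin in place. Several of these proteins come in fibre-type forms: the calsarcins encoded by Myoz1 and Myoz3 and the alpha-actinin encoded by Actn3 belong to fast fibres, Myoz2 to slow fibres and heart, and Actn2 to all fibres and heart.

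Expression of 9 genes of this structure was examined: the calsarcins Myoz1, Myoz2 and Myoz3, the alpha-actinins Actn2 and Actn3, and the Z-disc genes Ldb3, Myot, Tcap and Ky. The genes were chosen by name, out of 18194 genes with a probe set of their own. Large falls of Myoz3 and Ky in these data were already known at that point. Every probe set that the array annotation pairs with exactly 1 of these symbols was taken, 14 in all. RNA came from the quadriceps (QF) muscle of adult male C57Bl/10 mice and was measured on 8 whole-genome Affymetrix arrays, 1 for each sample. The 4 samples labelled Control came from mice kept under room conditions for 2 weeks. The 4 samples labelled Hypoxia came from mice in a closed chamber, where oxygen was lowered from 21% to 8% during the first week and held at 8% for 7 more days. Chamber housing and low oxygen therefore cannot be told apart. No allele, transgene or agent other than oxygen is named for either group, and nothing says that the samples of a group were separate animals beyond naming each muscle, so p-values measure only the spread between these samples. Values are MAS5 signals, a linear intensity per probe set and array, and differences are means of log2(signal + 16) in Hypoxia minus Control with the standard error (SE) of the limma fit.

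Myoz3, the transcript of a fast-fibre calsarcin, was below the filter on dim probe sets in every array after hypoxia. Ky was about 16.3-fold lower, a size that depends on the constant of 16 added before the logarithm. Myoz1, Ldb3, Tcap and Actn3 were lower by smaller amounts. Myoz2, Actn2 and Myot overlapped between the groups. Of the 14 probe sets, 12 had a mean over all arrays above the filter and were tested. The bright Myoz3 probe set passed the filter only through its Control signals. Of the 12 tested, 9, from 6 genes, were past the limma threshold (adjusted p of 0.05) in the lower direction. Over all 27022 probe sets tested, 16.4% were called lower, 12.5% were called higher, and in 17.0% every Hypoxia array lay below every Control array, which was also the case for 9 of the 12. By limma 0 of the 12 were called higher, and 0 had a positive difference at an unadjusted p under 0.05. The median difference of the 12 was -0.85, against -0.04 for all probe sets tested. Since Myoz3 and Ky were already known as large falls in these data when the 9 genes were put together, their counts and differences are descriptions, given without p-values, and nothing is read from the share called.

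The beta-actin measure of RNA quality and some markers of other cell types also differed between the groups. The 3' to 5' signal ratio of the beta-actin control probe sets, which is higher where RNA is broken or incompletely copied, was 1.09 to 1.25 in Control, 1.40 to 1.59 in Hypoxia 2 to 4 and 2.53 in Hypoxia 1. The same ratio for Gapdh was 3.44 in Hypoxia 1 and 0.776 to 0.874 in the 7 other arrays. All 7 skeletal muscle markers (Acta1, Ckm, Myh1, Myh4, Tnnt3, Des, Mb) were well detected, which fits the labelled tissue, but 5 of them were called lower and their summed signal was 319374 to 385316 in Control and 215926 to 294728 in Hypoxia. Both neutrophil markers with a probe set, S100a8 and S100a9, were called higher, with sums of 169.6 to 447.5 and 2606 to 4961, and all 3 fibroblast markers were called lower, with sums of 26201 to 34657 and 12647 to 16413. Of the 3 macrophage markers, Cd68 was called higher and the other two lower, with sums of 4458 to 5764 and 5584 to 8073. Of 3 endothelial markers 0 were called in either direction, with sums of 1429 to 3612 and 1280 to 3345. Adiponectin (Adipoq) was lower, and the adipocyte sums were 2224 to 14793 and 691.9 to 3081. The satellite cell sums were 133.3 to 219.7 and 193.4 to 369.6, with Pax7 below the filter. S100b, the single Schwann cell marker measured, was not called, at 173.2 to 215 and 40.7 to 167.7. The cardiomyocyte markers Myh6 and Nppa and the erythroid marker Hba-a1 were below the filter on dim probe sets in these arrays. The part of these shifts in the results was not tested. In whole muscle, fewer fibres of a type and less RNA per fibre cannot be told apart.

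**Figure D1:**
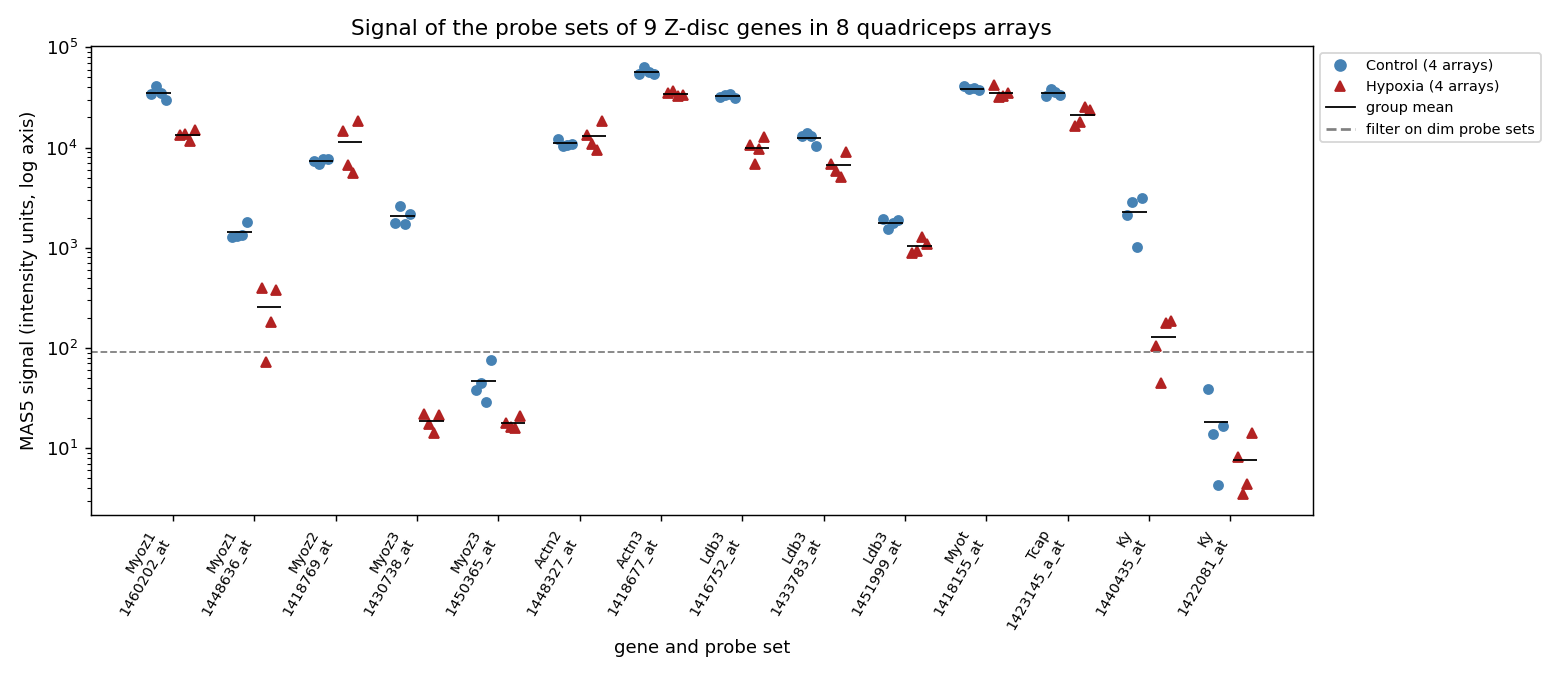
MAS5 signal (log axis) of the 14 probe sets of the 9 genes in each array, with Control arrays as circles, Hypoxia arrays as triangles, array numbers 1 to 4 running left to right, group means as black lines and the signal at the filter (90.2) as a dashed line. On the bright Myoz3 probe set all 4 Hypoxia arrays lie near a signal of 20, under the filter, whereas the Myoz2, Actn2 and Myot triangles overlap their circles.

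The stretches of DNA before annotated start sites of Ldb3, Myoz2 and Actn2 are shown because Ldb3 was lower after hypoxia and the others overlapped between the groups. Each is the 250 bases before 1 annotated transcript start in the promoter table made from RefSeq (build GRCm38.p6), given 5' to 3' on the strand of the gene. That table matched 4 of the 9 genes (Myoz1, Myoz3, Actn3, Myot and Tcap were not matched). A window need not precede the outermost start of the gene. The Actn2 window ends where the RefSeq gene begins, and 16 bases of the Myoz2 window lie within the gene. The Ldb3 window lies wholly inside its gene, before an internal start 1633 bases from the outer one. The Ky window also lies inside its gene, before a start 383 bases from the outer one, and is not shown. Capitals mark matches, on either strand, to 4 motifs: the E-box CANNTG bound by myogenic factors, the MEF2 site, the CArG box of serum response factor, and ACGTG or GCGTG, the core of the hypoxia response element.
Ldb3, chr14:34588682-34588931, minus strand: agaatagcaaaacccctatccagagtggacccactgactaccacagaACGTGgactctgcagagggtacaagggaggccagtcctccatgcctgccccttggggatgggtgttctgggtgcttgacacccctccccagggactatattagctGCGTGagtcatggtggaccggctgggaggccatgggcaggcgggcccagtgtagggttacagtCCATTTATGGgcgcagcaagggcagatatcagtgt
Myoz2, chr3:123034988-123035237, minus strand: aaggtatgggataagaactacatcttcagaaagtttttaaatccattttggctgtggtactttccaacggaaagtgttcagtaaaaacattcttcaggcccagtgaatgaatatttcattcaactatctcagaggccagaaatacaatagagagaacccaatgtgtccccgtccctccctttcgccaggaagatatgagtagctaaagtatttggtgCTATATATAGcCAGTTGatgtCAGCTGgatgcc
Actn2, chr13:12340733-12340982, minus strand: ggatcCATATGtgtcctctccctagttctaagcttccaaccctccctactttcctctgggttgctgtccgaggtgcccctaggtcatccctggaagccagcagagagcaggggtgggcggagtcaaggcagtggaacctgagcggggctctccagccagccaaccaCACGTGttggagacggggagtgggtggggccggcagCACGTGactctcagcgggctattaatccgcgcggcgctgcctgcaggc
The Ldb3 window held a CArG box at -35 and 2 hypoxia response cores, at -203 and -98, with no E-box and no MEF2 site. A further internal start of Ldb3 gave an overlapping window with the same CArG box and only 1 hypoxia response core. The Myoz2 window held a MEF2 site at -33 and 2 E-boxes, at -22 and -12. The Actn2 window held 3 E-boxes, of which the 2 with the letters CACGTG each contain the hypoxia response core on both strands, at -84 and -48. The Ky window, of a gene that was also lower after hypoxia, held 1 E-box, at -58. It held no MEF2 site, no CArG box and no hypoxia response core. Among all windows 66.2% held an E-box, 38.6% a hypoxia response core, 2.92% a MEF2 site and 1.47% a CArG box. These matches describe letters in a window and do not show that a factor binds there.

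Among the 9 genes, Myoz3 had the lowest difference. Its bright probe set (1430738_at) gave signals of 1751, 2583, 1723 and 2166 in Control 1 to 4 and of 21.9, 17.5, 14.2 and 21.3 in Hypoxia 1 to 4. Each Hypoxia array was thus below the filter on dim probe sets, a signal of 90.2, and the groups were far apart. The log2 difference was -5.88 ± 0.21 (SE, n = 4 per group). Because the Hypoxia signals are near the constant added before the logarithm, that constant sets the size: it was -6.70 with a constant of 1 and -4.66 with a constant of 64. The rank from the lowest among the 27022 probe sets tested moved with it, from 1 with constants of 16 and 1 to 3 with a constant of 64. The other Myoz3 probe set (1450365_at) was below the filter in both groups and was not tested, with signals of 28.8 to 75.2 in Control and 15.8 to 20.9 in Hypoxia. It ran in the same direction without overlap, at a brightness where sizes say little.

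Myoz1, the other fast-fibre calsarcin, was lower on both of its probe sets. The bright one (1460202_at) read 33948, 40800, 35186 and 29854 in Control and 13482, 13599, 11593 and 14874 in Hypoxia. All Hypoxia arrays lay within a narrow band at 38.4% of the Control level. The log2 difference was -1.38 ± 0.14 (SE, n = 4 per group). The dimmer probe set (1448636_at) read 1292, 1319, 1327 and 1814 in Control and 396, 73.1, 183 and 376 in Hypoxia. Its difference of -2.64 ± 0.40 was larger but spread widely, since the Hypoxia arrays differed 5.42-fold among themselves, with Hypoxia 2 lowest and Hypoxia 1 and 4 highest. The direction is shared by the probe sets, while the size of the Myoz1 difference is uncertain.

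Myoz2, the calsarcin of slow fibres and heart, did not follow them. Its probe set (1418769_at) read 7317, 6815, 7607 and 7767 in Control and 14622, 6687, 5529 and 18379 in Hypoxia. Hypoxia 1 and 4 were above every Control array and Hypoxia 2 and 3 below every Control array, so that the groups overlapped. The difference of 0.44 ± 0.32 was not past the threshold, and it was 0.99 in Hypoxia 1 alone and 0.25 in the other Hypoxia arrays. The Control arrays differed by no more than 1.14-fold, and the Hypoxia arrays by 3.32-fold. A similar order among the Hypoxia arrays was seen in genes of slow fibres, which were looked up after the Myoz2 values were seen. Of 6 such genes (Myh7, Tnnt1, Tnni1, Tnnc1, Myl2 and Atp2a2), 5 were higher in both Hypoxia 1 and 4 than in Hypoxia 2 and 3. Myl2, a slow myosin light chain, read 7180, 1490, 2954 and 12138 in Hypoxia 1 to 4, against 5252 to 6251 in Control. Myh7, the slow myosin heavy chain, read 1949, 744.4, 509.9 and 2386, against 831.2 to 1830 in Control. The exception was Tnni1, which was below its Control range in Hypoxia 1 and above it only in Hypoxia 4. This order was not particular to slow-fibre genes. It was also seen in Actn2, Myot, the bright Myoz3 probe set, the dimmer Myoz1 probe set and the Ldb3 probe sets 1416752_at and 1433783_at. Actn3, Tcap, Ky, the bright Myoz1 probe set and Ldb3 1451999_at did not show it. Its share over all probe sets was not taken.

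Among the alpha-actinins, Actn3 of fast fibres was lower and Actn2 overlapped between the groups. Actn3 (1418677_at) read 54194, 63215, 57039 and 54638 in Control and 35233, 36600, 32586 and 33140 in Hypoxia. Every Hypoxia array was below every Control array, and within a group the arrays differed by no more than 1.17-fold. The difference was -0.73 ± 0.12 (SE, n = 4 per group), which leaves 60.1% of the Control level. Actn3 was among the brightest features of the array. The highest signal of an array ran from 63939 to 75518 in Control and from 42966 to 63466 in Hypoxia, so the scaling bears on Actn3. After quantile normalization the Actn3 difference was -0.41, still past the threshold. Other bright muscle transcripts did not all move alike. Skeletal actin (Acta1, -0.48) and muscle creatine kinase (Ckm, -0.55) were lower. Desmin (Des, 0.16) was not called, and Pdlim3 (0.53) was called higher. The 270 brightest probe sets, 1% of those tested, had a median difference of -0.10 with quartiles at -0.48 and 0.23. Of these, 78 (28.9%) were called lower and 25 higher. Their median was 0.04 after quantile normalization and -0.01 after median centring.

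Actn2 (1448327_at) read 12193, 10439, 10534 and 10880 in Control and 13370, 10878, 9461 and 18448 in Hypoxia. The highest value of all was Hypoxia 4, and Hypoxia 3 was below every Control array. The difference of 0.20 ± 0.19 was not past the threshold.

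**Figure D2:**
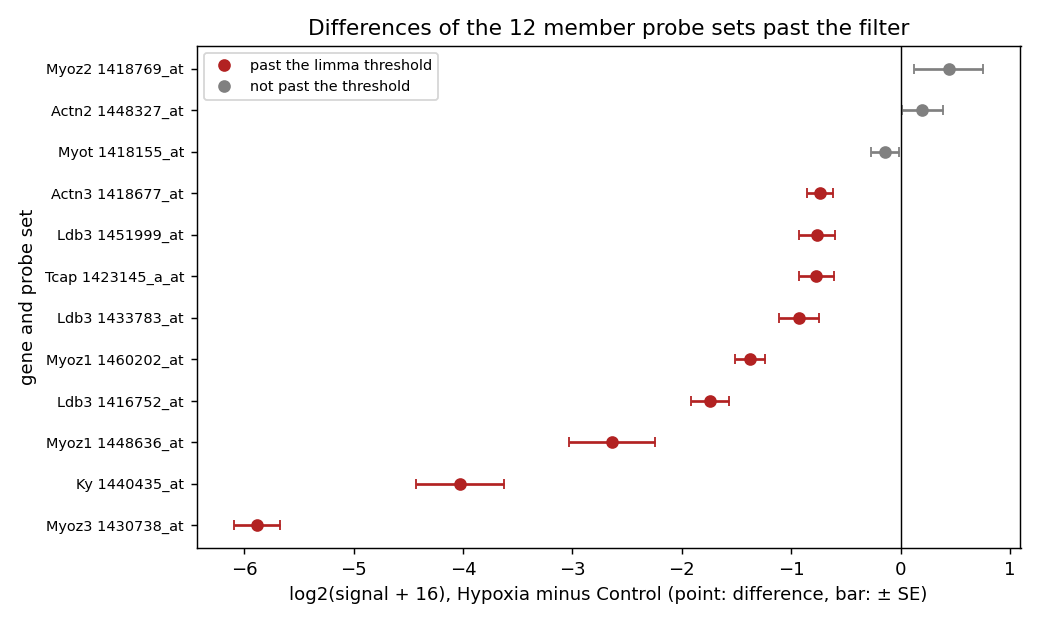
Difference of mean log2(signal + 16), Hypoxia minus Control, with its SE, for the 12 probe sets past the filter, in order of size. Points past the limma threshold are dark red and run from -0.73 (Actn3) to -5.88 (Myoz3); Myot, Actn2 and Myoz2 are grey and lie between -0.14 and 0.44.

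Ratios of related genes within an array are not changed by a single scaling factor per array, apart from the small constant added before the logarithm. They were formed after the values were seen, as a description with no test, and without Myoz3, whose Hypoxia signals were below the filter. The ratio of Actn3 to Actn2, on the log2 scale and set to 0 at the Control mean, was -0.98, -0.63, -0.59 and -1.53 in Hypoxia 1 to 4 and -0.23 to 0.22 in Control. Its Hypoxia mean was -0.93, and -0.59 after quantile normalization, which rescales bright and dim signals differently. The ratio of Myoz1 to Myoz2 was -2.35, -1.21, -1.17 and -2.54 in Hypoxia, against -0.29 to 0.34 in Control, with a Hypoxia mean of -1.82, and -1.67 after quantile normalization. In both pairs the fast form was lower relative to the other form in every Hypoxia array, and most in Hypoxia 1 and 4. A probe set's level cannot be set against that of another, so these ratios show unequal change and not which transcript was more abundant.

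**Figure D3:**
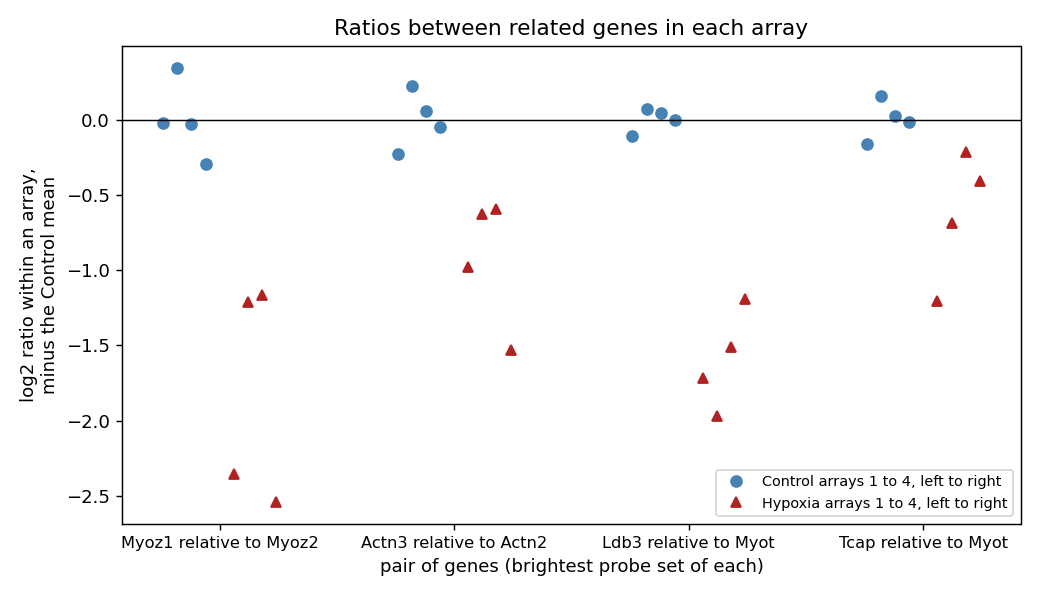
Log2 ratio of the brightest probe sets of 4 pairs of related genes within each array, minus the mean of the Control arrays, with Control arrays as circles and Hypoxia arrays as triangles, in array order 1 to 4. Every triangle lies below the circles of its pair; the ratios to Myoz2 and Actn2 are lowest in Hypoxia 1 and 4, at -2.35 and -2.54 and at -0.98 and -1.53.

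Ldb3 encodes ZASP, also called Cypher, a PDZ and LIM domain protein that binds alpha-actinin and the calsarcins. Its brightest probe set (1416752_at) read 31756, 33571, 33836 and 31209 in Control and 10678, 6789, 9667 and 12778 in Hypoxia. The Control arrays were nearly level and all Hypoxia arrays were far below them, with Hypoxia 2 lowest. The difference was -1.74 ± 0.17 (SE, n = 4 per group), which leaves 29.9% of the Control level. A second bright probe set (1433783_at) read 12901, 13827, 13074 and 10412 in Control and 6862, 5790, 5106 and 9069 in Hypoxia, a difference of -0.93 ± 0.18. The third (1451999_at) read 1917, 1542, 1757 and 1888 in Control and 879, 928, 1277 and 1099 in Hypoxia, a difference of -0.77 ± 0.16. All 3 probe sets were without overlap and past the threshold, and they differed in size. ZASP is made in several splice forms, and which forms each probe set reads was not analysed here.

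Tcap encodes telethonin, which caps the ends of paired titin molecules at the Z-disc. It (1423145_a_at) read 32967, 38390, 36032 and 33297 in Control and 16397, 17858, 25581 and 23795 in Hypoxia. The groups did not overlap, and Hypoxia 1 and 2 were lower than Hypoxia 3 and 4. The difference was -0.77 ± 0.16, and -0.66 without Hypoxia 1.

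Myot encodes myotilin, an immunoglobulin domain protein that binds alpha-actinin and filamin C. Its probe set (1418155_at) read 40799, 37952, 39074 and 37210 in Control and 41774, 31675, 32780 and 34790 in Hypoxia. Hypoxia 1 was the highest of all arrays and the other Hypoxia arrays were below every Control array. The difference of -0.14 ± 0.13 was not past the threshold, and its sign turned to 0.05 after quantile normalization. Within an array, Ldb3 stood lower against Myot in every Hypoxia array, by -1.19 to -1.97 on the log2 scale relative to the Control mean, and Tcap by -0.22 to -1.21.

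Ky encodes a protein with a transglutaminase-like domain that binds filamin C, and its loss in mice causes a degenerating myopathy with a curved spine. The bright probe set (1440435_at) read 2134, 2832, 1026 and 3113 in Control and 104.7, 44.7, 176 and 185 in Hypoxia. The groups lay far apart although both were uneven, with Control 3 the lowest Control array and Hypoxia 2 the lowest of all. The difference was -4.03 ± 0.40 (SE, n = 4 per group), rank 27 from the lowest among the probe sets tested. The other Ky probe set (1422081_at) was below the filter, with signals of 4.3 to 38.6 in Control and 3.5 to 14.1 in Hypoxia that overlapped, and was not tested.

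The genes whose profile over the 8 arrays was most like that of Myoz3, by the root-mean-square difference of mean-centred log2 values, were Atp1b2, which encodes a beta subunit of the sodium pump (0.53), the phospholipase Plcd4 (0.63), the peroxisomal transporter Abcd2 (0.65), Nrep (0.67) and BC023105 (0.70). For Ky the 5 nearest probe sets belonged to 3 genes. They were 3 probe sets of Ddit4l, an inhibitor of mTORC1 signalling (0.31, 0.37 and 0.46), then Bves, a membrane protein of striated muscle (0.42), and Igfbp5, which binds insulin-like growth factors (0.47). All of these were lower in Hypoxia, by -3.64 (Bves) to -5.64 (Plcd4), as the choice by likeness requires. Hypoxia means of Abcd2 (9.4), Bves (28), Atp1b2 (57) and Plcd4 (80.2) were below the filter signal of 90.2, and those of the other genes were above it. The added constant therefore bears on these sizes. The measure is dominated by the gap between the groups that the profiles share, and says nothing of shared control.

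Other proteins of the Z-disc and of actin anchoring were read from a list of 26 genes, of which 23 were tested, each by its brightest probe set. The list was chosen with earlier results of these data known, so its p-values are descriptive. Of these, 6 fell, 5 rose and 12 did not pass the test (26.1% lower and 21.7% higher, against 17.8% and 14.0% of all 13257 genes), and the median difference was -0.03, against -0.04 for all genes. Sorbs2, an adaptor of actin and signalling proteins at the Z-disc, fell most, from 3893, 3477, 3330 and 3486 in Control to 388.3, 502.4, 627 and 597.6 in Hypoxia. Its difference was -2.73 ± 0.17 (limma, adjusted p = 4.30e-07, lower in 4 of 4 Hypoxia arrays). Pdlim7, also called Enigma, and Palld, which encodes palladin, a relative of myotilin, fell 3.35-fold and 3.04-fold (limma, adjusted p = 1.55e-05 and 3.55e-05). Pdlim7 also had a dim probe set at -0.16 that did not pass and another at -1.52 that was called lower. Capza2, a subunit of the protein that caps actin filaments at the Z-disc, changed by -0.85 ± 0.13 (limma, adjusted p = 0.000398). Capza1, another subunit of the capping protein, did not pass on its brightest probe set (-0.01 ± 0.20) or on its other one (0.17). Pdlim1 (-0.66) was near the threshold, and leaving out single arrays ended its call. Capzb, a further subunit of the capping protein, was also near the threshold on its brightest probe set by mean log2 value (-0.52). Leaving out single arrays ended that call. A similarly bright Capzb probe set lay at -1.06 ± 0.14 (limma, adjusted p = 0.00011), and another at -0.63 did not pass.

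The highest differences in this list were those of Csrp3, Xirp1 and Flnc. Csrp3, the muscle LIM protein, rose 3.96-fold, from 3345, 3153, 3452 and 3222 to 20498, 13277, 7841 and 13681 (limma, adjusted p = 5.00e-05). Hypoxia 1 was highest and no Hypoxia array came near the Control range. Xirp1, an actin-binding protein of muscle attachment sites and damaged fibres, rose 3.56-fold (limma, adjusted p = 0.000935). Flnc, the muscle filamin that binds calsarcins, myotilin and Ky, rose from 2216, 1457, 1703 and 1623 to 4512, 5792, 5496 and 5511. Its difference was 1.61 ± 0.16 (limma, adjusted p = 1.53e-05), with its other probe set at 1.30. Pdlim3, a PDZ and LIM protein that binds alpha-actinin, rose by 0.53 ± 0.12 (limma, adjusted p = 0.00513). Nrap rose by 0.52 ± 0.17, near the threshold (limma, adjusted p = 0.0377), with Hypoxia arrays that overlapped Control, and lost its call without any of 6 single arrays. The non-muscle alpha-actinins did not pass the test, at 0.08 ± 0.28 for Actn1 and -0.45 ± 0.22 for Actn4. Another Actn1 probe set lay at -0.81 without passing. Desmin (Des, 0.16 ± 0.13), which links neighbouring Z-discs, did not pass either.

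Calcineurin, the calcium-activated phosphatase that calsarcins tether at the Z-disc, was read with its regulators and the NFAT factors it activates. This list too was chosen with earlier results of these data known, and its p-values are descriptive. Of 12 listed genes 11 were tested, of which 5 fell, 1 rose and 5 did not pass (45.5% lower and 9.09% higher, against 17.8% and 14.0% of all genes), with a median of -0.29, against -0.04 for all genes. Of the 5 that fell, Nfatc2 lost its call under 12 of 19 alternatives, which left 4. Rcan2, a regulator that binds calcineurin, fell 2.85-fold from 3073 ± 453 to 1078 ± 224 (SD, n = 4 per group; limma, adjusted p = 7.08e-05). Nfatc1, the NFAT factor tied to slow-fibre genes, changed by -1.28 ± 0.17 (limma, adjusted p = 0.000158) where it was brightest. A further 3 Nfatc1 probe sets lay at -0.26, -0.03 and 0.28 without passing, so its change is uncertain. The catalytic subunit Ppp3cb and the regulatory subunit Ppp3r1 fell 2.16-fold and 1.70-fold (limma, adjusted p = 0.000197 and 0.00382), and the catalytic subunit Ppp3cc rose 1.51-fold (limma, adjusted p = 0.0146). Nfatc2 fell by 0.60 on the log2 scale, near the threshold (limma, adjusted p = 0.0412). Its other probe sets lay at -0.82, -0.57, -0.37 and 0.74 without passing. Rcan1, a calcineurin inhibitor whose gene is itself a calcineurin target, did not pass, at 0.02 ± 0.16, and its other probe set lay at -1.89 ± 0.69 without passing.

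**Figure D4:**
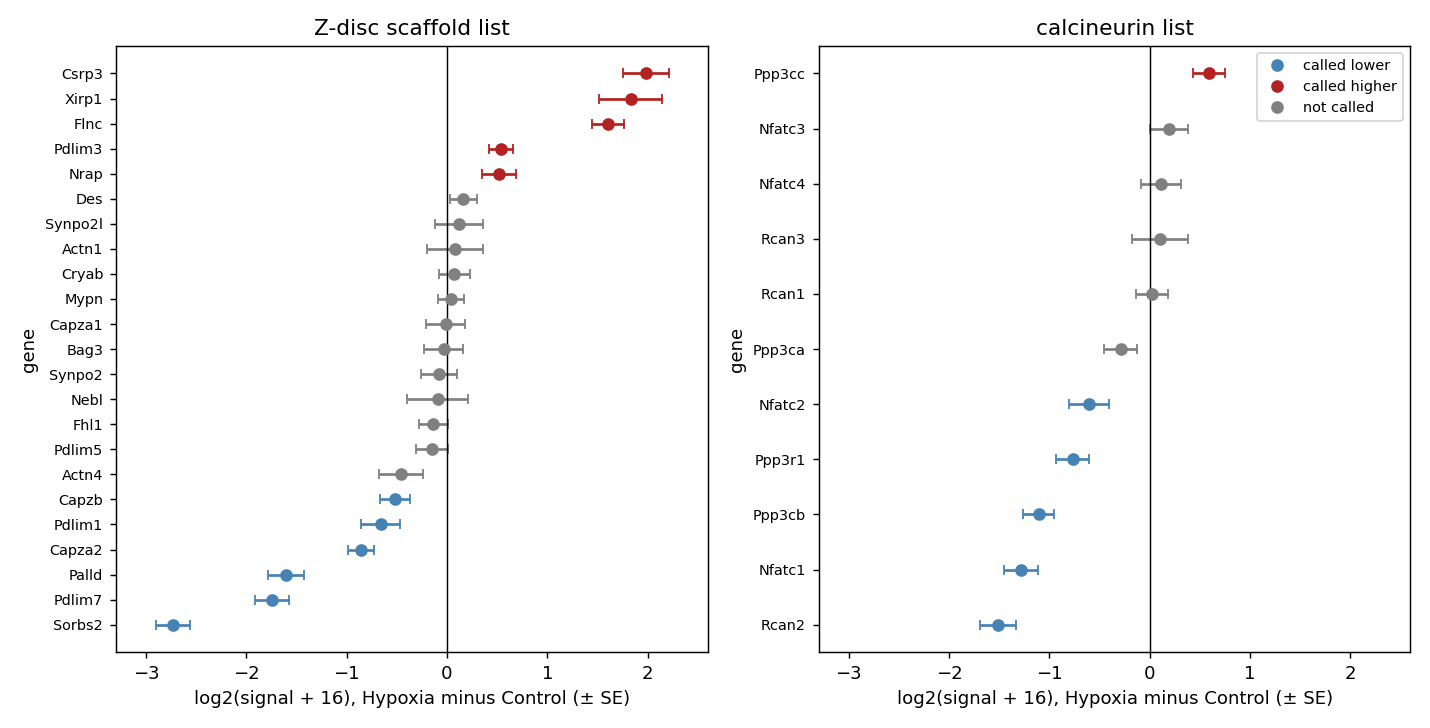
Difference of mean log2(signal + 16), Hypoxia minus Control, with its SE, for the tested genes of the Z-disc scaffold list (left, 23 genes) and the calcineurin list (right, 11 genes), each gene by its brightest probe set. Blue points were called lower, red points higher and grey points neither; the scaffold list runs from -2.73 (Sorbs2) to 1.98 (Csrp3) and the calcineurin list from -1.51 (Rcan2) to 0.59 (Ppp3cc).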

How the data were processed

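The deposited table holds signal intensities on a linear scale, 1 per probe set and array, made by the authors with MAS5, which is named in the submitters' processing notes; the version is not given in the sources used here. Each array had a 2% trimmed mean of 500.0, so this scaling was kept. The number of arrays limits the precision. Sample titles gave the groups. The table lists 45101 probe sets; dropping 64 Affymetrix controls and then the dimmest 40% by mean log2 value kept 27022, all with a mean above a signal of 90.2. Platform annotation named 34958 probe sets by 1 symbol, 932 by several and 9211 not at all.

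Log2(signal + 16) was compared with limma 3.58.1 in R 4.3.3 (lmFit, eBayes with trend) in a two-sided test without a block. Adjustment followed Benjamini and Hochberg over all 27022, with a threshold of 0.05. The procedure was also run on simulated data with independent noise and planted falls only. This checks the code and not how well the model suits these data. Members, lists and tests were chosen with earlier results of these data known. Named genes were all members, the list genes with the smallest p (6 and 4), all genes of a direction with 5 or fewer calls, and Actn1, Actn4 and Rcan1. Des, Acta1, Ckm, Pdlim1, Capzb, Capza1 and the slow-fibre genes were added after their values were seen. Same-numbered arrays did not deviate together (correlations -0.07 to 0.01 across probe sets). Alternatives were other scalings, constants, filters, probe set choices, variance models, array weights, a replicate block and leaving out each array.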

Additional observations from a re-analysis of the deposited data

Results flagged for a closer look

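Of 28 sets of 4 arrays checked (14 probe sets in 2 groups), 1 had an array standing apart from the others. The dimmer Myoz1 probe set (1448636_at) read 1814 in Control 4 and 1292 to 1327 in the other Control arrays. Chance gives such a flag in about 1 of 20 sets.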

How the results depend on the processing

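The 9 member probe sets called lower were called lower under each of the 19 alternatives that tested them (with 1 probe set per gene, 6 of 6 genes), and 0 member probe sets were called higher under any. Leaving out each array in turn gave 9 in every case. Myoz2 and Actn2 stayed positive and uncalled under all 19, and Myot ran from -0.23 to 0.05. Leaving out single arrays gave 9 to 11 called genes in the Z-disc scaffold list and 5 to 6 in the calcineurin list, and all 19 alternatives gave 8 to 11 and 5 to 6. With the replicate number as a block the counts were 9 lower and 0 higher among the members, 11 in the scaffold list and 5 in the calcineurin list; the numbers do not pair the arrays, and Nfatc2 was the call lost. Nfatc2 lost its call under 12 alternatives, Nrap under 9, Pdlim1 under 5 and Capzb under 4, so these 4 calls, each on the brightest probe set of its gene, are weak (another Capzb probe set lay at -1.06, limma adjusted p = 0.00011). Each of them was also lost in some fits with a single array left out. Pdlim1 (-0.66 with all arrays) was uncalled without Control 1 (-0.50), Control 3 (-0.65), Hypoxia 2 (-0.65) or Hypoxia 3 (-0.60). Capzb was uncalled without Control 2 (-0.49) or Control 4 (-0.46), and Nrap without any of Control 1 to 3 or Hypoxia 2 to 4 (0.46 to 0.50). Nfatc2 (-0.60 with all arrays) was uncalled without any single Control array or without Hypoxia 1 or 4 (-0.65 to -0.50). Some of these differences hardly moved or grew. Fewer arrays also weaken the test, so a lost call need not mean that the array left out drove the difference. The other calls of both lists were kept under all 19. Cryab under quantile normalization and Actn4 without Hypoxia 3 (-0.63) gained a call. Signals near or under the filter, as for Myoz3 after hypoxia, limit the size of a difference more than its direction. The ratios between related genes, recomputed under the same alternatives after the data were seen, kept their sign under all 19.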

Other observations

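Some genes of the lists were read differently by their other probe sets. Mypn, which encodes myopalladin and did not pass on its brightest probe set (0.04), had a second one that was called lower at -0.55 ± 0.19 (limma, adjusted p = 0.0457). Pdlim5, a PDZ and LIM protein that binds alpha-actinin, did not pass on its brightest probe set (-0.15), while a bright second one was called lower at -0.53 ± 0.19 (limma, adjusted p = 0.0488) and the other 4 did not pass. The calcineurin subunit Ppp3ca did not pass on its brightest probe set (-0.29), and both of its other probe sets were called lower, at -0.61 and -0.64 (limma, adjusted p = 0.00634 and 0.00439). Nfatc3 lay at 0.19 on its brightest probe set and was called lower on the other, at -0.76 ± 0.25 (limma, adjusted p = 0.0346). Which splice forms these probe sets read was not analysed here.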
